A study of Rattus norvegicus with 6 samples.

Results

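The genes of haemoglobin and of the red cell were followed in heart RNA of rats given AACO, a Chinese medicine formula, and of control rats. The genes were Hba-a1, Hba-a2, Hbb, Hbb-b1, Alas2, Ahsp, Slc4a1 and Epb42, and every non-control probe that the array files name after one of them was taken, whatever its values. This gave 11 of 30367 non-control probes, for 7 of the 8 genes. No probe carried the name Hba-a1. The probes named Hba-a2 on the array list the RefSeq transcript that the current rat assembly, GRCr8, calls Hba-a1, and the names of the array files are kept here.

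The samples were 3 AACO arrays and 3 control arrays, each of RNA labelled as whole heart. AACO was given at 0.386 µg/g each day for 8 weeks, and the control animals received double-distilled water in the same amount, with death 24 h after the last dose in both groups. Per the series text all animals, controls included, had TAC, which in heart research usually stands for transverse aortic constriction, an operation that loads the left ventricle. That text calls them mice, whereas the sample labels and the probes are rat. No strain, age, sex or sham-operated group is used here. The labels do not explain the letters AACO and do not say that each array is a separate animal, so p-values reflect only how far these 6 arrays scatter.

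Haemoglobin is a tetramer of alpha-like and beta-like globin chains, each of which holds a haem group that binds oxygen. Red cell precursors in the marrow make globin in very large amounts, and the young red cells released into blood, the reticulocytes, still carry globin mRNA although they have no nucleus. Alas2 is the erythroid enzyme that starts haem synthesis, Ahsp is a chaperone that binds free alpha globin, Slc4a1 is band 3, the anion exchanger of the red cell membrane, and Epb42 is protein 4.2, which ties band 3 to the membrane skeleton. Such transcripts in a piece of heart usually come from blood held in its vessels. In bulk tissue RNA, fewer red cells and less RNA per red cell cannot be told apart.

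Because probes given the same globin gene name gave different results, their letters are shown first. All 11 probes are 60 bases long, and their sequences and their positions on rat build rn4 are those of the array files. In each pair that disagrees, 1 probe holds a start codon and the other the letters AATAAA. In the stretches below, capitals mark the start codon ATG, which begins at base 18 of the Hba-a2 probe and at base 48 of the Hbb probe, or the letters AATAAA, which usually stand shortly before the poly(A) tail of an mRNA. The Hbb-bs probe, named LOC689064 in the array files, is a beta globin probe outside the 8 genes and is shown because it also holds AATAAA.
Hba-a2 A_64_P032502: ggaagcaatcATGgtgctctctgcagatga
Hba-a2 A_64_P032499: tcttggtctttgAATAAAgcctgagtagga
Hbb A_44_P306307: aacagacaccATGgtgcacctga
Hbb A_64_P028036: atctgtcctactAATAAAaggca
Hbb-bs A_64_P156319: tagcttctatctAATAAAtgatatttactt

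On the strand given in the array files, AATAAA occurred in 8.39% of all 30367 non-control probes, and ATGGTGC, the start codon with the bases that follow it in both globin probes above, in 0.316%. The Hbb probe with the start codon shared a run of 50 bases with the first 50 transcribed bases of Hbb in the RefSeq promoter table (GRCr8). The Hba-a2 probe with the start codon shared runs of 34, 33 and 30 bases with those of Hba-a1, Hba-a2 and Hba-a3, and the array files list 2 alpha globin transcripts for it. The Hbb probe with AATAAA lists transcripts of 3 beta globin genes, and on rn4 it lies beyond both Hbb-b1 probes from the start-codon probe of Hbb. It therefore cannot be assigned to Hbb alone. Both probes of the Hbb pair list the Hbb transcript, but whether they read the same transcript was not tested.

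The pair of Hbb-b1 probes and the Alas2 probe, each with at least 1 reading frame free of stop codons, are printed whole. The capitals mark the longest run, of 14 bases, that Hbb-b1 probe A_64_P088393 shares with the probe of Hbe2, an epsilon globin gene, and at the best alignment these 2 probes have 35 identical bases. Hbb-b1 probe A_64_P088392 lists 2 beta globin transcripts, of Hbb-b1 and of Hbb-bs, so it cannot be assigned to Hbb-b1 alone.
Hbb-b1 A_64_P088393: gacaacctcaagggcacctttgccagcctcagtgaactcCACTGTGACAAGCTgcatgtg
Hbe2 A_64_P048927: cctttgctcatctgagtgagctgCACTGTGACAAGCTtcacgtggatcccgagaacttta
Hbb-b1 A_64_P088392: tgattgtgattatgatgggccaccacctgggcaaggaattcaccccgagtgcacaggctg
Alas2 A_44_P541461: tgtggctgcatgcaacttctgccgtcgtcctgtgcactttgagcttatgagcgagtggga

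Values, called scaled signal here, are log2 intensities from which the 75th percentile of the same array was taken away, so a value of 0 lies at that percentile and no probe's level is set against another's. Between 70.92% and 72.44% of spots were well above background on the AACO arrays, against 65.99% to 68.7% on the control arrays, and no spot was saturated. All AACO arrays lay on 1 slide and all control arrays on another, scanned at another time, so for every result below slide and group cannot be told apart. On AACO replicates 1 and 2 the atrial transcript Myl7 stood at 5.41 and 6.85, against −0.44 on AACO replicate 3 and −2.26 to −0.85 on the control arrays, and results are therefore also given for AACO replicate 3 alone. Over the 20112 probes tested, 996 were higher and 1166 lower with AACO, which is 10.7% in either direction. Without scaling these counts were 6341 and 267, and the median over all probes moved to 0.52, against −0.02 in the scaled values. In the scaled values 6085 of the 20112 probes had an unadjusted p under 0.05 in limma, in either direction, and 10588 lay below 0.

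Most haemoglobin and red cell probes had less signal with AACO. Of the 10 probes that could be tested, 7 fell, while 5.8% of all probes tested did so. These 7 were both probes of Hbb-b1 and of Ahsp, the probe of Alas2, and the start-codon probes of Hba-a2 and Hbb. Without scaling 4 of them fell, those of Ahsp, Alas2 and Hbb, at −0.98, −0.90, −0.84 and −0.82 on the log2 scale. The start-codon probe of Hba-a2 (−0.64, adjusted p = 0.086) and both Hbb-b1 probes (−0.35 and −0.39, adjusted p = 0.304 and 0.247) then did not pass. None rose, all 7 with an unadjusted p under 0.05 in limma were lower, and 4.95% of all probes tested rose. For the same 7 probes every AACO array lay below every control array in scaled signal, which held for 19.8% of all probes tested, and the other 3 overlapped. Before scaling the groups overlapped at each of these 7 probes. The Alas2 signal, for example, was 1172 to 2662 on the AACO arrays and 2512 to 4541 on the control arrays. The median over the 10 was −1.06 with a range of −1.53 to −0.01, beside −0.02 over all probes, and all 10 were well above background on every array. Several of these probes match more than 1 globin gene, so they are not independent of each other.

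The same probes were also read as a share of each array's total, which is another form of scaling. The member probes held 0.322%, 0.368% and 0.422% of the summed signal of AACO replicates 1, 2 and 3, against 0.488%, 0.558% and 0.523% on control replicates 1, 2 and 3. Every AACO array was below every control array.

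The calls depended on which array was left out. Without AACO replicate 1, AACO replicate 2 or control replicate 2, 0 of the 7 passed in limma after adjustment, although all 7 kept an unadjusted p under 0.05 in each of these fits. Without control replicate 1 only the Ahsp probe A_43_P16887 passed, and without control replicate 3 both Ahsp probes and Alas2 did. Without AACO replicate 3 all 7 passed. With AACO replicate 3 as the single AACO array, all 7 were still lower, by 0.55 to 1.20 on the log2 scale, with unadjusted p under 0.05 for each and adjusted p between 0.312 and 0.393. That last comparison assumes that a single AACO array varies as the control arrays do.

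**Figure D1:**
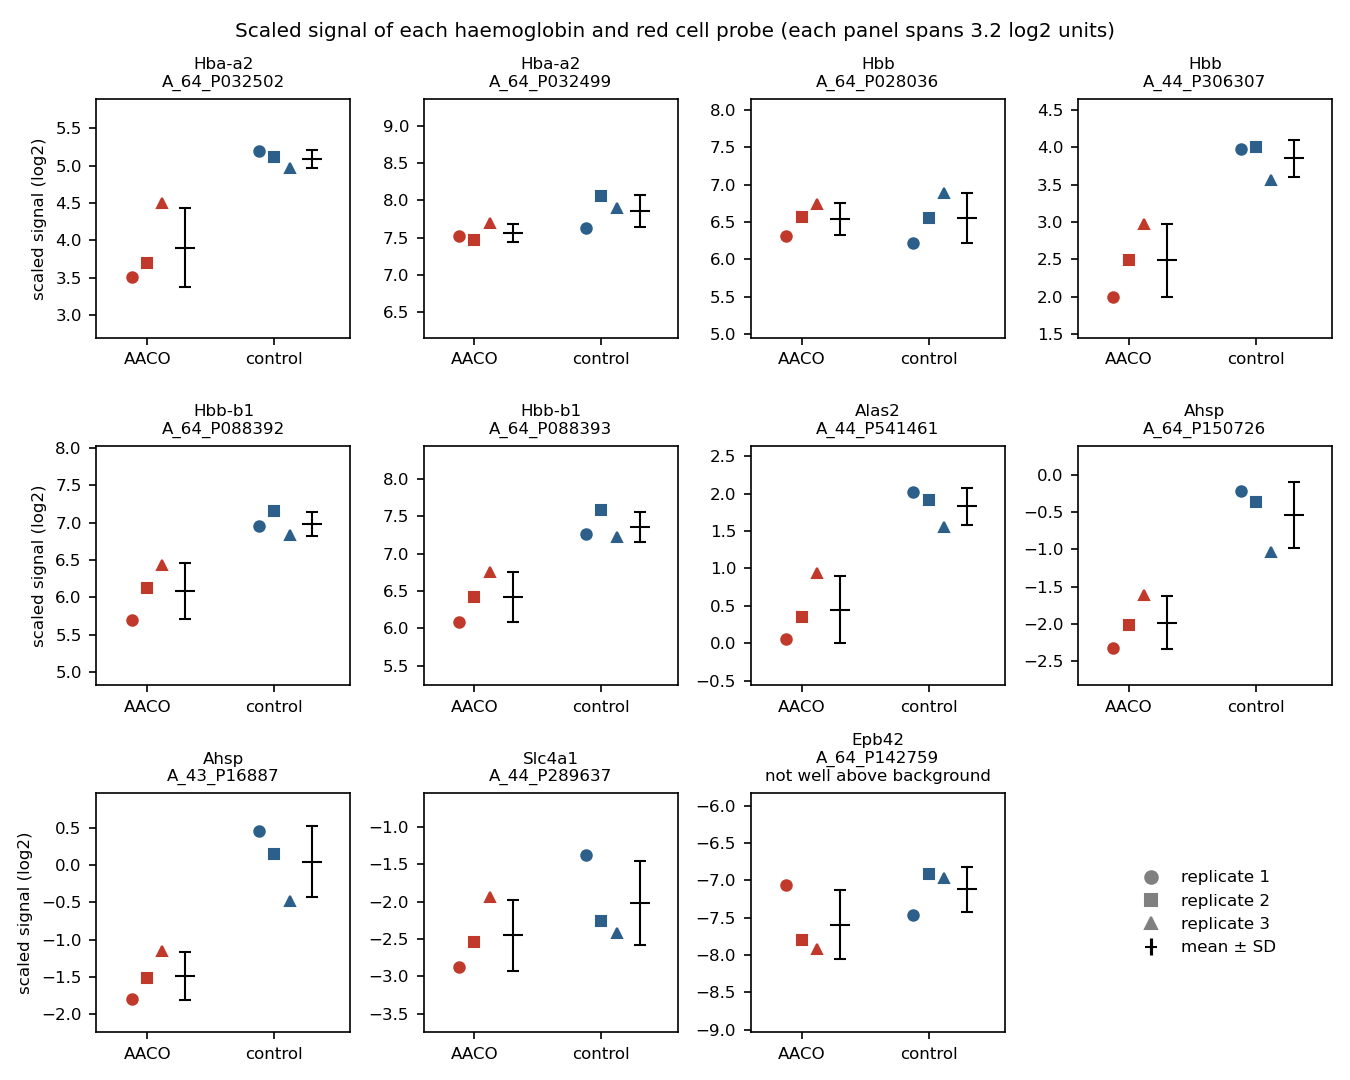
Scaled signal (log2) of each of the 11 probes on the 3 AACO arrays (red, left) and the 3 control arrays (blue, right), with the mean and SD beside each group. Every AACO array lies below every control array for 7 probes, whereas A_64_P032499, A_64_P028036 and the Slc4a1 probe overlap and Epb42 is not well above background on any array.

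The alpha globin probes gave different results. At the start-codon probe of Hba-a2 (A_64_P032502, chr10:15585140-15585199, minus strand, rn4) the scaled signal was 3.51, 3.69 and 4.50 on AACO replicates 1, 2 and 3, against 5.19, 5.12 and 4.96 on control replicates 1, 2 and 3. AACO replicate 3 was the nearest to the controls, and the groups did not overlap. The mean was 3.90 ± 0.52 with AACO and 5.09 ± 0.12 in control hearts (SD, n = 3 each), a log2 fold change of −1.19 ± 0.26 (SE), or 2.28-fold lower with AACO (limma adjusted p = 0.0375).

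The AATAAA probe of Hba-a2 (A_64_P032499, chr10:15584360-15584419, minus strand) lists 1 alpha globin transcript, while the start-codon probe lists this one among its 2. Whether both probes read the same transcript was not tested. The AATAAA probe read 7.53, 7.46 and 7.70 with AACO, against 7.63, 8.06 and 7.89 in control hearts. AACO replicate 3 exceeded control replicate 1, so the groups overlapped. The log2 fold change was −0.30 ± 0.14, with a 95% interval of −0.64 to 0.04, and did not pass (adjusted p = 0.208). The interval leaves out the −1.19 measured at the start-codon probe, but that probe's own 95% interval, −1.81 to −0.57, overlaps it.

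The widest gap was between the 2 probes named Hbb. The start-codon probe (A_44_P306307, chr1:161620134-161620193, minus strand) read 1.996, 2.49 and 2.97 on the AACO arrays, against 3.98, 4.01 and 3.57 on the control arrays. Every AACO array was lower, and the log2 fold change was −1.36 ± 0.26, or 2.57-fold lower (adjusted p = 0.0282).

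The AATAAA probe of Hbb (A_64_P028036, chr1:161584872-161584931, minus strand) read 6.31, 6.56 and 6.74 with AACO, against 6.21, 6.55 and 6.88 in control hearts. Arrays of both groups were interleaved, and the log2 fold change was −0.01 ± 0.20 (adjusted p = 0.977), with an interval of −0.49 to 0.47. This probe was also the least repeatable of the tested ones. Its 2 spots on control replicate 2 differed by 1.09 on the log2 scale, at 7.10 and 6.01, whereas the median gap between spots of a member probe on an array was 0.07. Neither spot bore an outlier mark. Taken singly, the first spot of each array gave a difference of −0.19 and the second 0.16, and the groups overlapped either way.

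Both probes named Hbb-b1, after a second adult beta globin gene, fell by nearly the same amount. Whether their separate rn4 positions, given below, lie in 1 gene was not tested. Probe A_64_P088393 (chr1:161597660-161597719, minus strand) read 6.09, 6.41 and 6.76 with AACO, against 7.26, 7.59 and 7.22 in control hearts. Its log2 fold change was −0.94 ± 0.20, or 1.91-fold lower with AACO (adjusted p = 0.0351). Every AACO array was below the lowest control array.

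Probe A_64_P088392 (chr1:161590854-161590913, minus strand) read 5.70, 6.13 and 6.44 on the AACO arrays, against 6.95, 7.16 and 6.84 on the control arrays. It fell by 0.90 ± 0.20 on the log2 scale (adjusted p = 0.0412). Again the groups did not overlap, and AACO replicate 3 was the highest of the AACO arrays.

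The disagreement between 2 probes of the same name was measured on each array as their difference, which does not depend on a constant taken from the array. For Hba-a2, the start-codon probe minus the AATAAA probe was −4.01, −3.77 and −3.20 on the AACO arrays and −2.44, −2.94 and −2.93 on the control arrays. The start-codon probe had thus lost 0.89 more than the other, and the groups did not overlap. For Hbb the same difference was −4.32, −4.07 and −3.76 with AACO, against −2.23, −2.54 and −3.32 in control hearts, a change of −1.35 between the groups, also without overlap. The probes of Hbb-b1 differed in their change by −0.04 and those of Ahsp by −0.08, and in both pairs the groups overlapped.

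Over these 4 pairs the exact two-sided permutation p was 0.1 for Hba-a2 and for Hbb, the smallest that 3 against 3 arrays can give, 0.2 for Ahsp and 0.5 for Hbb-b1, and the adjusted p was 0.2, 0.2, 0.267 and 0.5 in the same order. No pair could have passed in this test. No member spot was saturated, with the brightest at 309095 where the scanner's limit was at least 778512.

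**Figure D2:**
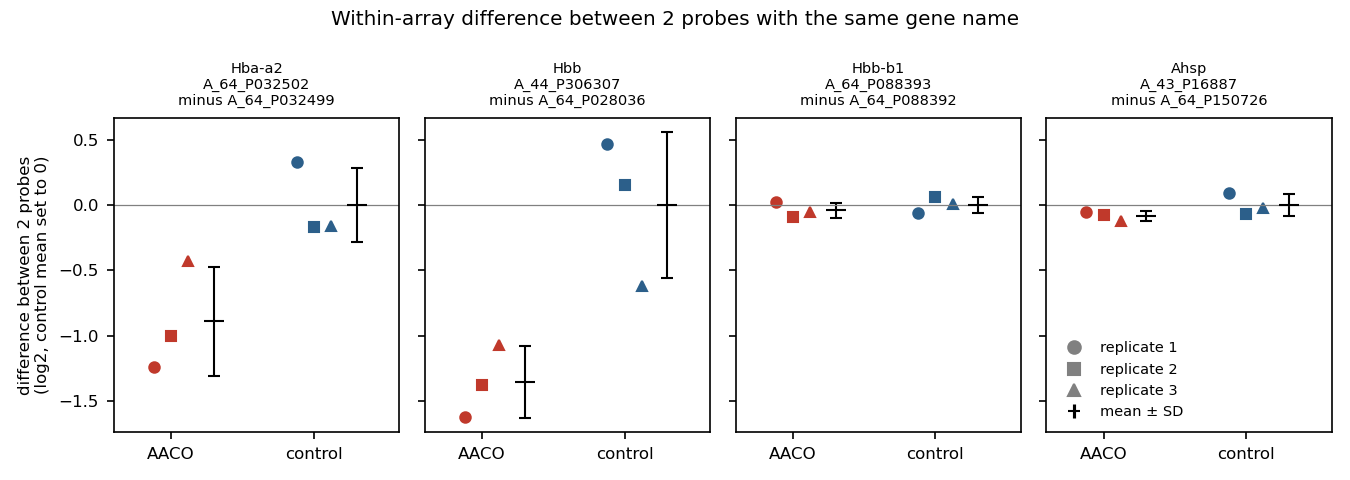
Difference in log2 signal on each array between 2 probes with the same gene name, shifted so that the control mean is 0, for the 3 AACO arrays (left of each panel) and the 3 control arrays (right), with mean and SD. The AACO arrays lie 0.89 lower for Hba-a2 and 1.35 lower for Hbb on average, while those of Hbb-b1 and Ahsp overlap the controls.

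Other globins on the array were read beside these. Hbb-bs, an adult beta globin gene whose probe holds AATAAA (A_64_P156319, chr1:161578128-161578187, minus strand), read 3.22, 3.62 and 4.16 with AACO, against 5.32, 5.11 and 4.70 in control hearts, and fell by 1.38 ± 0.27 (adjusted p = 0.0297). Of the 4 tested globin probes with AATAAA, 1 therefore fell and 3 did not pass, the third being that of the embryonic alpha-like gene Hbz (−0.31 ± 0.28, adjusted p = 0.5). The Hbz probe was dim, well above background on 2 of 3 AACO arrays and 1 of 3 control arrays, which limits what its missing call can show. Both probes with the start codon fell.

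Hbe2, an epsilon globin gene, read 4.97, 5.42 and 5.74 with AACO, against 6.22, 6.40 and 6.08 in control hearts, and fell by 0.86 ± 0.21 (adjusted p = 0.0482). Its probe is the one that shares 14 bases in a row with an Hbb-b1 probe, and whether it also binds that transcript was not tested. Hbg1, a gamma-like globin gene, fell by 0.74 ± 0.14 (adjusted p = 0.0253) at a dim probe, with a signal of 35.0 to 45.5 on the AACO arrays and 36.8 to 50.6 on the control arrays before scaling. The probes of Hbe1 and of Hba-a3 (LOC287167 in the array files) were not well above background.

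Globins that do not belong to the red cell did not pass. Myoglobin (Mb), the oxygen store of heart muscle, read 8.45, 8.30 and 8.32 with AACO, against 8.33, 8.97 and 8.61 in control hearts, a difference of −0.28 (adjusted p = 0.322). Cytoglobin (Cygb), found in fibroblast-like cells, differed by −0.11 (adjusted p = 0.522) and neuroglobin (Ngb) by 0.42 (adjusted p = 0.0657). Over the 7 other globins tested, 3 fell, and the median was −0.31 beside −0.02 over all probes.

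**Figure D3:**
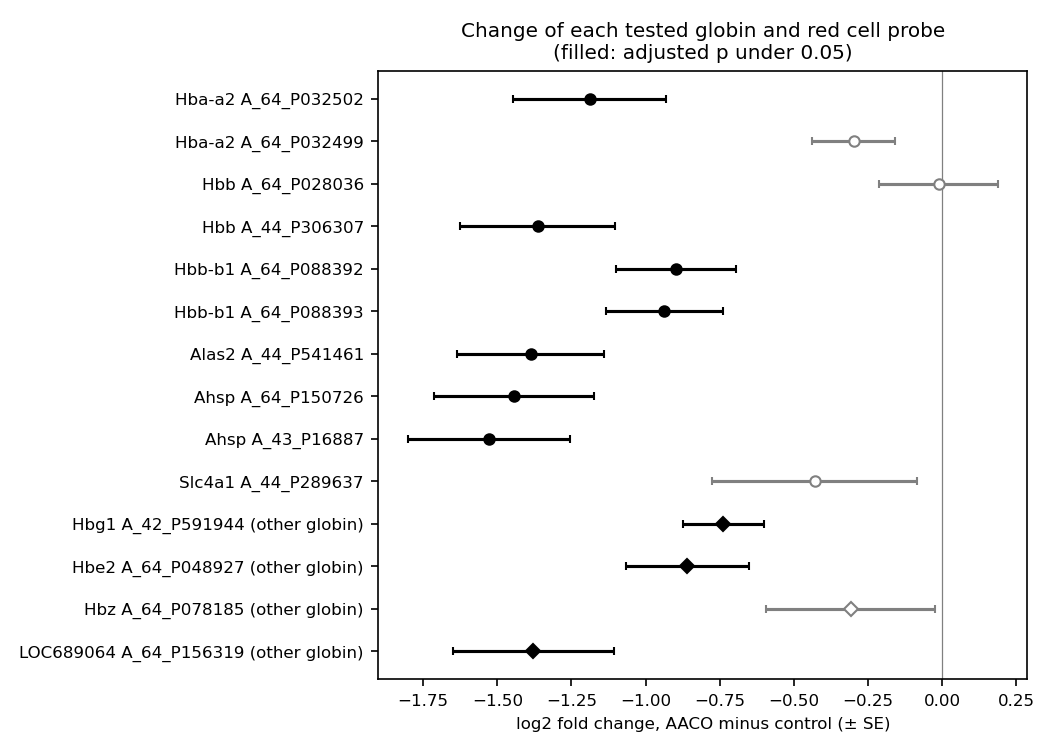
Log2 fold change, AACO minus control, with its standard error for the 10 tested probes of the red cell genes (circles) and 4 probes of other haemoglobin chains (diamonds), filled where the limma adjusted p was under 0.05. The filled symbols lie between −1.53 and −0.74, and the open ones are the AATAAA probes of Hba-a2, Hbb and Hbz and the Slc4a1 probe.

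Alas2 and Ahsp, which serve haemoglobin production, fell too. Alas2 (A_44_P541461, chrX:39810353-39810412, plus strand) read 0.05, 0.35 and 0.94 on AACO replicates 1, 2 and 3, against 2.03, 1.92 and 1.56 on control replicates 1, 2 and 3. The mean was 0.45 ± 0.45 with AACO and 1.83 ± 0.25 in control hearts (SD, n = 3 each), which is 2.62-fold lower (log2 −1.39 ± 0.25, adjusted p = 0.0234). The highest AACO array stood below the lowest control array.

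The larger fall of the Ahsp probes, at A_43_P16887 (chr1:187561567-187561626, plus strand), rested on −1.79, −1.51 and −1.16 with AACO, against 0.46, 0.15 and −0.48 in control hearts. This was 2.88-fold lower, at a log2 fold change of −1.53 ± 0.27 (adjusted p = 0.0235). The second Ahsp probe (A_64_P150726, chr1:187561484-187561543) read −2.32, −2.01 and −1.61 with AACO, against −0.21, −0.36 and −1.04 in control hearts, and fell by 1.44 ± 0.27 (adjusted p = 0.0261). Control replicate 3 was the lowest control array at both probes, yet still above all AACO arrays.

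The membrane genes Slc4a1 and Epb42 gave no call. Slc4a1 (A_44_P289637, chr10:91455352-91455411, minus strand) read −2.88, −2.54 and −1.94 with AACO, against −1.38, −2.26 and −2.43 in control hearts. AACO replicate 3 exceeded control replicates 2 and 3. The log2 fold change of −0.43 ± 0.34 did not pass (adjusted p = 0.436), and its 95% interval of −1.26 to 0.40 still holds falls as large as those of the Hbb-b1 probes. Epb42 (A_64_P142759, chr3:107808613-107808672, minus strand) was not well above background on any array, with a signal of 5.74 to 8.48 with AACO and 6.28 to 6.79 in control hearts, and was not tested.

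The arrays within a group kept much the same order from probe to probe. AACO replicate 3 was the highest of the AACO arrays for 10 of the 10 tested probes and AACO replicate 1 the lowest for 9. Control replicate 3 was the lowest control array for 8 of the 10.

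Beyond the 8 genes, 119 genes in lists chosen with earlier results of these data known could be tested, each by its brightest probe. Most are genes of red cells, haem and blood cells. The 119 also include lists of 12 cardiac muscle and 6 atrial genes, with Nppa in both, of which 0 passed. Of the 119, 18 fell and 4 rose, where 5.8% and 4.95% of all probes tested did so. The 22 kept their sign in every alternative fit, although only Tfrc, Hmox1, Cd163 and Slc40a1 passed whichever 1 array was left out. With AACO replicate 3 alone 0 of them passed in limma. Without scaling, Hbg1, Hbe2, Tspan33, Stom, Lmo2, Gata2, Pf4, Clec1b, Cd4, Slc40a1 and Ftl1 did not pass either, with Lmo2, Gata2 and Stom at −0.06, −0.05 and −0.05 on the log2 scale.

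Among haem synthesis genes other than Alas2, those that passed were higher with AACO. Of 13 tested genes 3 rose and 0 fell, or 5 and 2 at an unadjusted p under 0.05 in limma, and the median was 0.18. Alas1, the housekeeping counterpart of Alas2, read 6.25, 6.08 and 6.31 with AACO, against 5.69, 5.77 and 5.58 in control hearts (0.53 ± 0.11, adjusted p = 0.033). Cpox, which makes protoporphyrinogen in the mitochondrion, rose by 1.20 ± 0.19 (adjusted p = 0.0169) and was well above background on 2 of 3 control arrays. Ppox, which takes the next step, rose by 0.51 ± 0.09 (adjusted p = 0.0254). With normexp background correction neither Cpox (0.21, adjusted p = 0.253) nor Ppox (0.35, adjusted p = 0.058) passed, and Alas1 (0.64, adjusted p = 0.0197) did.

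Among membrane and skeleton genes 3 of 16 fell and 0 rose, or 7 and 3 at an unadjusted p under 0.05 in limma. Add2, the beta adducin that caps actin in the red cell skeleton, read −5.26, −4.93 and −4.89 with AACO, against −3.80, −3.16 and −3.67 in control hearts, and fell by 1.49 ± 0.20 (adjusted p = 0.0119). Its probe was dim, and with normexp background correction its log2 fold change was −0.93 (limma adjusted p = 0.0099). Tspan33, a tetraspanin of red cell precursors, fell by 0.77 ± 0.09 (adjusted p = 0.00963) and Stom, the membrane protein stomatin, by 0.60 ± 0.09 (adjusted p = 0.0166). The list's median was −0.27.

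Of 22 red cell enzymes and reticulocyte genes 1 rose and 2 fell, shares near those of all probes tested. At an unadjusted p under 0.05 in limma 1 was higher and 5 were lower, and 18 of the 22 lay below 0. Of all 20112 probes tested, 6085 had such a p in either direction and 10588 lay below 0. Tfrc, the transferrin receptor that imports iron, rose 3.13-fold (1.65 ± 0.17, adjusted p = 0.00793), at 1.05, 0.49 and 0.65 with AACO, against −1.06, −0.73 and −0.96 in control hearts. Many cell types other than red cell precursors make it. Tent5c, a poly(A) polymerase, fell by 2.42 ± 0.44 (adjusted p = 0.0241) and Hemgn, a nuclear protein of blood cell precursors, by 1.73 ± 0.36 (adjusted p = 0.0346, well above background on 2 of 3 AACO arrays). Both probes were dim with AACO. With normexp background correction their log2 fold changes were −1.65 and −1.03, and both still passed. The median of the list was −0.26.

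Of 12 tested transcription factors of red cell precursors, Lmo2 (−0.61 ± 0.12, adjusted p = 0.0267) and Gata2 (−0.60 ± 0.13, adjusted p = 0.0363) fell, both of which vessel cells also make. None rose after adjustment in limma, while 2 were higher at an unadjusted p under 0.05. Klf1 (−0.10, adjusted p = 0.799), Tal1 (−0.07, adjusted p = 0.679), Nfe2 (−0.06, adjusted p = 0.875) and Zfpm1 (0.02, adjusted p = 0.917) did not pass in limma. Klf1 was well above background on 2 of 3 control arrays. Gata1 and Gfi1b, which mark committed red cell precursors, were not tested because their probes were too dim. The median was −0.07.

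**Figure D4:**
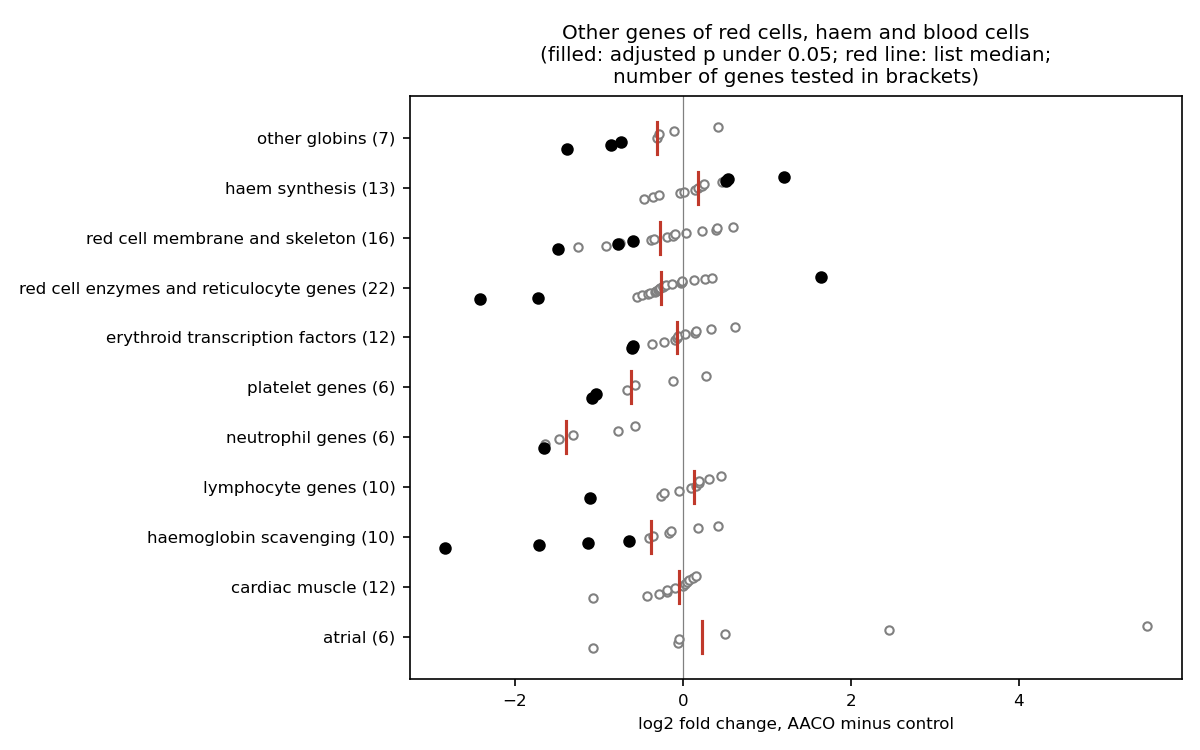
Log2 fold change, AACO minus control, of each tested gene in 11 lists (1 point a gene, by its brightest probe), filled where the limma adjusted p was under 0.05, with the list's median as a red line. Haem synthesis has 3 filled points to the right of 0, and the neutrophil list, with a median of −1.39, lies wholly to the left.

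Genes of other blood cells were set beside the red cell genes. Of 6 platelet genes 2 fell, namely Pf4 (−1.03 ± 0.14, adjusted p = 0.0117) and Clec1b (−1.08 ± 0.24, adjusted p = 0.0405), with a median of −0.62. Their summed level, in multiples of each array's 75th percentile, was 3.44 to 3.87 with AACO and 4.75 to 5.40 in control hearts. The brightest platelet genes, Gp1bb and Pf4, weigh most in that sum. Gp1bb read 1.10, 1.03 and 1.10 with AACO, against 1.29, 0.96 and 1.35 in control hearts, so its groups overlapped, unlike those of Pf4. At an unadjusted p under 0.05 in limma 4 of the platelet genes were lower and 0 higher. Of 6 neutrophil genes 1 fell, Retnlg (−1.66 ± 0.21, adjusted p = 0.01), while S100a8 (−1.65 ± 0.40, adjusted p = 0.0502) did not pass. All 6 were lower at an unadjusted p under 0.05, their median was −1.39, and their summed level was 1.15 to 2.24 with AACO and 2.89 to 3.88 in control hearts.

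Lymphocyte genes had a median of 0.13. Of 10 tested, Cd4 fell (−1.11 ± 0.17, adjusted p = 0.0161), a gene that some macrophages of the rat also express, and Ptprc, which all white cells express, differed by −0.23 (adjusted p = 0.406). The Cd4 probe was dim, at −5.39, −5.30 and −5.30 with AACO, against −4.52, −4.27 and −3.88 in control hearts. The summed levels overlapped at 1.33 to 1.55 with AACO and 1.13 to 1.89 in control hearts. Summed platelet and neutrophil levels thus lay apart between the groups and summed lymphocyte levels did not. Among single probes, 37.1% of all those tested lay apart, in either direction. The part of blood content in the red cell results was not tested.

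Genes that clear haemoglobin and haem fell in 4 of 10 cases. Hmox1, the enzyme that opens the haem ring, read −0.73, −0.11 and 0.39 with AACO, against 2.82, 2.64 and 2.59 in control hearts, and fell by 2.83 ± 0.27 (adjusted p = 0.00658). Cd163, the macrophage receptor for haemoglobin bound to haptoglobin, fell by 1.72 ± 0.20 (adjusted p = 0.00863). Slc40a1, the iron exporter ferroportin, fell by 1.14 ± 0.15 (adjusted p = 0.0107) and Ftl1, the ferritin light chain, by 0.65 ± 0.12 (adjusted p = 0.0271). None rose at an adjusted or unadjusted p under 0.05 in limma.

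The muscle of the sample was read from 12 cardiac genes. None passed in limma, 1 was lower at an unadjusted p under 0.05, and their median was −0.05. Mybpc3 (−0.43 ± 0.13, adjusted p = 0.0779) and Actc1 (−0.29 ± 0.13, adjusted p = 0.198), both of the sarcomere, stood nearest to a call. Summed cardiac levels overlapped, at 1768 to 1920 with AACO and 1634 to 2282 in control hearts.

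Of 6 atrial genes 0 passed in limma and 2 were higher at an unadjusted p under 0.05. Myl7, the atrial light chain of myosin, differed by 5.53 ± 1.78 (adjusted p = 0.0959). Sln, an atrial regulator of the calcium pump, read 1.97, 4.43 and 0.21 with AACO, against −1.05, 0.23 and 0.07 in control hearts (adjusted p = 0.163). The part of atrial tissue in the red cell results was not tested, beyond the values of AACO replicate 3 alone given above.

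The genes most like the brightest globin probe and like Alas2 were sought among 13391 named genes, by the root mean square difference between profiles over the 6 arrays after each was centred. Nearest to the AATAAA probe of Hba-a2 were Klhl24, Noa1, Fyn, Slc2a13 and Grwd1, at 0.04 to 0.05 on the log2 scale, and none of these passed. Nearest to Alas2 were Cd52 (0.06), a surface antigen of white cells, Crem (0.09), a transcription factor that answers to cAMP, Map3k6 (0.14), Slc41a3 (0.14) and Zbtb16 (0.15). Their log2 fold changes, −1.40 to −1.31, follow from the likeness by which they were picked and are given as a description. Cd52, for example, read −2.10, −1.77 and −1.32 with AACO, against −0.25, −0.36 and −0.64 in control hearts.

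The promoters of 3 globin genes are given from the RefSeq table for GRCr8, as the 120 bases before the transcription start, 5′ to 3′ on the gene's strand. Of the 8 gene symbols 6 were in that table. Capitals mark CCAAT and the TATA-box forms TATAAA and CATAAA, searched on both strands. The Hba-a1 promoter lies at chr10:15842581-15842700, that of Hbb at chr1:167663722-167663841 and that of Hbb-b1 at chr1:167643521-167643640, all on the minus strand.
Hba-a1: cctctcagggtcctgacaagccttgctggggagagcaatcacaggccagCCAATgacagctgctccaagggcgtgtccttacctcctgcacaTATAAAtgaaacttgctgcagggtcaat
Hbb: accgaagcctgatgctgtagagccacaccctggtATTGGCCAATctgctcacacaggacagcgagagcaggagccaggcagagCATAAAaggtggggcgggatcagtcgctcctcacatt
Hbb-b1: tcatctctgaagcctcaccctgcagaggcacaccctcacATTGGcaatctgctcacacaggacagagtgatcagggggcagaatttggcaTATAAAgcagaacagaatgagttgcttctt

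All of these hold CCAAT or ATTGG, which is CCAAT on the other strand. CCAAT begins 71 bases before the start in Hba-a1 and 81 in Hbb. ATTGG begins at 86 in Hbb and at 81 in Hbb-b1. A TATA-box form begins 28 bases before the start in Hba-a1, 37 in Hbb and 30 in Hbb-b1. In the 250 bases before the start of all 33469 promoters of the table, CCAAT occurs in 34% of promoters, TATAAA in 12.9% and CATAAA in 11.4%. Letters bound by the erythroid factors GATA1 and KLF1 were searched in the same 250 bases. TGATAA, in 7.97% of all promoters, occurs once in Hba-a1, 165 bases before the start, and CCACCC, in 26.1%, once in Hbb-b1, at 142. AGATAA, in 10.3% of all promoters, is in none of the globin windows of the 8 genes. Only these exact letters were searched. Other forms, such as the ccacaccc in the Hbb stretch above, were not, so a missing match does not mean a missing site. A match is a run of letters and was not tested for binding.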

How the data were processed

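Expression was measured on 6 arrays, 3 AACO and 3 control. Each array is single-colour (Cy3), made from 0.2 ug of RNA per the labels' protocols. Per the file headers, images were read by Agilent Feature Extraction 10.7.1.1. The deposited intensity used for each spot was the processed signal, from which background had been subtracted but which the authors had not scaled across arrays. A series matrix of deposited log2 values, normalized in a way the labels leave out, served as an alternative.

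Control spots and outlier-marked spots were left out, spots of a probe averaged, and log2 values reduced by the array's 75th percentile. Values on all arrays existed for 30357 of 30367 non-control probes, and the 20112 that exceeded background clearly (the scanner's mark) on 3 or more of 6 arrays were kept. These were fitted in limma 3.58.1 under R 4.3.3 (lmFit, eBayes, two-sided, Benjamini-Hochberg over all 20112 probes, threshold 0.05), a procedure tested on simulated data. A probe is said to have risen or fallen only past that threshold; fold changes are AACO minus control, with standard errors. Adjusted p-values of probes and genes come from limma with 3 arrays a group. Differences between probes with the same gene name were tested by exact permutation in SciPy 1.17.1.

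The genes, lists and tests were chosen with earlier results of these data known. Named were every member probe, in each list the 2 genes of smallest p and those past the threshold (at most 6), and the 5 genes nearest in profile to each of 2 guide probes. Some other genes of the lists are named beside these. Symbols of GRCr8 were matched by accession for 18005 probes. The number of arrays limits the precision. Alternatives covered background correction, scaling, the filter on dim probes, outlier marks, 1 probe a gene, leaving out each array and, chosen after seeing the data, AACO replicate 3 alone and single spots.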

Additional observations from a re-analysis of the deposited data

How the results depend on the processing

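Of the 7 probes that fell, all 7 also did so with normexp background correction, quantile normalization, the series matrix, no filter, a filter on all arrays and outlier-marked spots kept. The count was 4 without scaling and 3 with 1 probe a gene, where by construction only 3 of the 7 remain. It ran from 0 to 7 when 1 array was left out, with adjusted p up to 0.125, and was 0 in limma with AACO replicate 3 alone, where all 7 had an unadjusted p under 0.05. All 7 stayed below 0 in every setting. Without scaling the median of all probes was 0.52; distances of the 7 from that median are the same with and without scaling by construction. Over all probes, 1166 fell and 996 rose (46.1% higher among those called). These counts were 2334 and 835 with normexp (26.3%), 267 and 6341 without scaling (96.0%) and 3460 and 1034 without the filter (23.0%). They ran from 203 to 1368 and from 122 to 1095 when 1 array was left out, and were 0 and 0 with AACO replicate 3 alone, where 2528 probes had an unadjusted p under 0.05. Over the lists 18 genes fell and 4 rose. The fall count was 30 with normexp and 10 without scaling, and the rise count was 30 without scaling; with 1 array left out they ran from 3 to 29 and from 1 to 5, and both were 0 with AACO replicate 3 alone. With normexp the difference between probes became −0.13 for Hbb-b1 and −0.21 for Ahsp. The cause of these shifts was not tested, apart from the smaller number of arrays or probes that some settings have by construction. The slide as a block could not be fitted, because slide and group coincide. No paired analysis was possible because the labels give the groups no shared replicate numbers. The precision is limited by 3 arrays a group, by Slc4a1 signals of 154 to 364 with AACO and 159 to 429 in control hearts, and by an Epb42 probe that never rose well above background.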
